A study of Drosophila melanogaster with 13 samples.

Results

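The trr binding sites on the X chromosome of the fly head genome were described here, with the sites on autosomal arms 2L, 3L and 3R set beside them. The members were every entry of the deposited list of trr binding sites placed on chromosome X, which gave 215 sites of 3371 in the whole list (6.38%). Arms 2L, 3L and 3R carried 665, 759 and 899 sites, 2323 together. The sites came from chromatin immunoprecipitation and sequencing (ChIP-seq) with an antibody against trr in heads of wild-type Drosophila melanogaster aged 0 to 5 days, in 2 replicates with 1 input library. RNA-seq was done on heads labelled with the same ages, though the study's methods state 1 to 5 days for them. It gave 2 libraries with a trr knockdown, which carried P{TRiP.HMS01019}attP2/+, and 2 control libraries, which carried P{y[+t7.7]=CaryP}attP2/+. All 4 RNA libraries came from flies with 1 copy each of the pan-neuronal driver Elav-Gal4 and of dicer2, which strengthens RNA interference, and differed in the insertion at attP2. Elav-Gal4 acts in neurons, while RNA of whole heads also comes from other cells. The sex of the flies is not given in the labels of any library.

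Trithorax related (trr) is the fly counterpart of the mammalian histone methyltransferases KMT2C and KMT2D. It places methyl groups on lysine 4 of histone H3, is best known for monomethylation at enhancers, and acts as a co-activator of the ecdysone receptor. The X chromosome is single in male flies and paired in females. In males the MSL complex, guided by the noncoding RNAs roX1 and roX2, binds along the active genes of the X and raises their transcription, which is called dosage compensation. The gene trr is itself X-linked, as is G9a, a histone H3 lysine 9 methyltransferase.

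The X carried about 1 site where the arms carried 3. Between its outermost sites, at 417064 and 21857867 bp in build dm3, the X spanned 21.4 Mb and held 10.03 sites per Mb (exact Poisson 95% interval 8.73 to 11.5). There were 29.0 sites per Mb on 2L (26.8 to 31.3), 31.1 on 3L (28.9 to 33.4) and 32.3 on 3R (30.2 to 34.5). The density of 2L was thus 2.89 times that of the X, that of 3L 3.10 times and that of 3R 3.22 times, and the X interval met none of the arm intervals. Counted in bases, X sites covered 101236 bp, or 4.72 kb per Mb, against 14.5 on 2L, 14.8 on 3L and 15.2 on 3R. The deposited list combines both ChIP replicates, so these values have no replicate error, and the intervals cover counting error only. An exact permutation test over the 4 chromosomes cannot give a one-sided p under 0.25, so none was run. A site also had to pass the authors' minimum of ChIP reads, reads per site are not in the list, and X copy number in these heads and the number of X sites found cannot be told apart.

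The number of active genes differed far less between the X and the arms than the number of sites. With expressed genes counted as those with at least 10 reads summed over the 4 RNA libraries, the X had 1824 expressed genes, against 1911 on 2L, 2180 on 3L and 2691 on 3R. There were 11.8 X sites per 100 expressed X-linked genes (10.3 to 13.5), against 34.8 on 2L (32.2 to 37.6), 34.8 on 3L (32.4 to 37.4) and 33.4 on 3R (31.3 to 35.7). Per expressed gene, 2L had 2.95 times as many sites as the X, 3L 2.95 times and 3R 2.83 times.

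**Figure D1:**
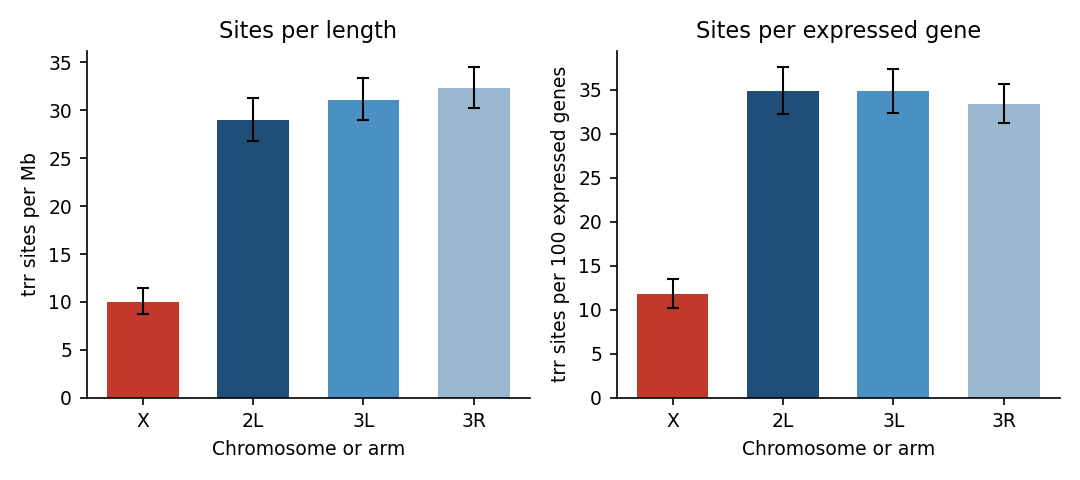
Number of trr sites per Mb between the outermost sites (left) and per 100 expressed genes (right) for the X and for arms 2L, 3L and 3R; bars start at 0 and error bars are exact Poisson 95% intervals for counting error. The X bar, at 10.03 sites per Mb and 11.8 sites per 100 expressed genes, lies below all 3 arms on both scales.

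The typical X site was close in length to those of the arms. Their length ran from 223 to 2071 bp, with a median of 402 bp (order-statistic 95% interval 378 to 422), quartiles of 312 and 530 bp and a mean of 471 ± 246 bp (SD over 215 sites). The median was 422 bp on 2L (408 to 439), 418 on 3L (400 to 430) and 401 on 3R (384 to 421), so that the X lay between 3R and 3L. With only sites of at least 300 bp kept, the X median was 440 bp and lay below all 3 arms (465 to 481 bp). The means were 502, 476 and 471 bp on 2L, 3L and 3R. The lower density in bases was therefore carried by the number of X sites and not by their length. Very short sites were a smaller share on the X. Only 6 X sites were shorter than 250 bp (2.79%, exact Clopper-Pearson interval 1.03 to 5.98), against 52 on 2L (7.82%, 5.90 to 10.1), 56 on 3L (7.38%, 5.62 to 9.47) and 80 on 3R (8.90%, 7.12 to 10.95). This limit was chosen after the lengths were seen, and the X interval met those of 2L and 3L but not that of 3R. Of the 2323 sites on the arms, 85 were shorter than the shortest X site, though a shorter minimum is likelier where there are more sites. Of the X sites, 13 reached 800 bp (6.05%, 3.26 to 10.1), against 12.9% on 2L, 8.17% on 3L and 8.68% on 3R, and the X interval held the shares of 3L and 3R but not that of 2L.

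Broad sites, of at least 1 kb, were 9 of the X sites (4.19%, 1.93 to 7.80), against 31 on 2L (4.66%), 30 on 3L (3.95%) and 32 on 3R (3.56%). Per Mb there were 0.42 broad sites on the X, against 1.35, 1.23 and 1.15 on 2L, 3L and 3R. They made up 12.0% of all bases in X sites, a share of 12.2% on 2L, 9.92% on 3L and 9.95% on 3R. The longest X site, chrX:7861873-7863944, measured 2071 bp and alone held 2.05% of the bases in X sites. Next in length were chrX:1935159-1936683 with 1524 bp, chrX:3571014-3572497 with 1483 bp, chrX:8304359-8305811 with 1452 bp and chrX:6959915-6961159 with 1244 bp. The remaining 4 broad sites measured 1207, 1149, 1012 and 1007 bp. All 9 broad sites lay at or before 15835280 bp, and none lay in the last of 4 equal stretches of the span. Of the 5 longest, 3 stood more than 30 kb from any other site (37.1, 37.7 and 30.7 kb), while chrX:3571014-3572497 had a neighbour 4.56 kb away and chrX:8304359-8305811 one 790 bp away. The shortest X sites were chrX:3673796-3674019 with 223 bp, chrX:18133400-18133625 with 225 bp and chrX:10638741-10638974 with 233 bp. The first and the last of these were members of close pairs, and the other was 146 kb from its nearest neighbour. Coordinates are given as in the deposited list, and no dm3 gene annotation or genome sequence was used here, so the sites are placed by position alone.

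The space between neighbouring X sites was wide. The 214 gaps, measured from the end of a site to the start of the next, had a median of 53.3 kb (43.1 to 75.9), quartiles of 16.4 and 144 kb and a mean of 99.7 kb. The median gap was 18.1 kb on 2L (15.7 to 21.9), 17.2 kb on 3L (14.7 to 19.1) and 16.6 kb on 3R (14.2 to 19.8). Gaps over 100 kb numbered 76 on the X (35.5%, 29.1 to 42.3), against 51 on 2L (7.68%), 51 on 3L (6.73%) and 50 on 3R (5.57%). Those 76 gaps took up 78.3% of the X span, against 31.9% on 2L, 32.7% on 3L and 26.6% on 3R. The X had 38 gaps over 200 kb, while 2L, 3L and 3R had 6, 6 and 7.

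The longest gap on the X ran from 14112646 to 15033231 bp and measured 921 kb, or 4.29% of the span. It was followed in size by 614 kb from 19781562 to 20396024 bp and 505 kb from 18737721 to 19243103 bp. These were the only gaps over 500 kb on the X, against 1 on 3L, 0 on 2L and 0 on 3R. The longest gap was 251 kb on 2L, 507 kb on 3L and 318 kb on 3R. Set against the mean gap of its own chromosome, the longest X gap was not out of range. It was 9.23 times the mean, and the longest gap was 7.38 times the mean on 2L, 16.0 times on 3L and 10.4 times on 3R.

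Once divided by the mean gap of their own chromosome, gaps on the X were spread much as on the arms. The coefficient of variation of the gaps was 1.20 on the X, against 1.22 on 2L, 1.39 on 3L and 1.26 on 3R. The median gap was 0.53 of the mean on the X, 0.53 on 2L, 0.54 on 3L and 0.54 on 3R. Gaps under 50% of the mean made up 48.1% of X gaps (41.3 to 55.0), against 48.0% on 2L, 48.7% on 3L and 48.6% on 3R. Gaps under 10% of the mean made up 17.8% (12.9 to 23.6), against 19.6%, 20.1% and 19.0%. For the shortest gaps the X had the lowest share. Under 2% of the mean it was 5.14% (2.59 to 9.01), against 8.43% on 2L, 7.39% on 3L and 9.35% on 3R, of which only 3R lay outside the X interval. Under 1% of the mean it was 3.74% (1.63 to 7.23), against 5.12% on 2L, 4.88% on 3L and 6.35% on 3R, each inside the X interval.

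**Figure D2:**
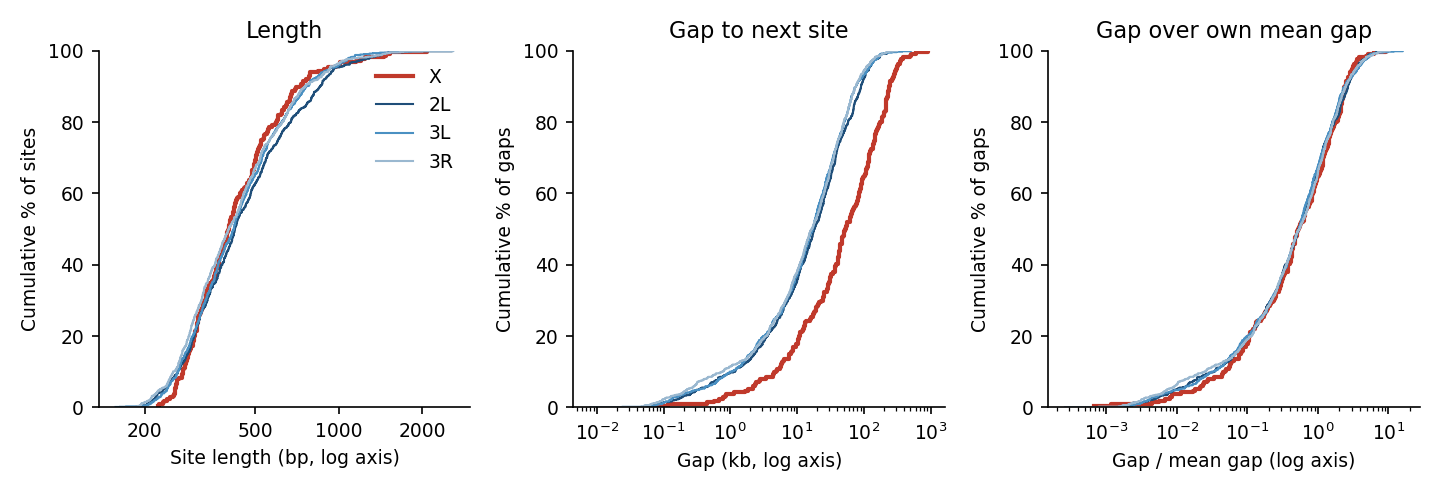
Cumulative share of sites by length (left), of gaps by size in kb (middle) and of gaps divided by the mean gap of the same chromosome (right), all on log axes, with 1 line each for the X, 2L, 3L and 3R. The X line is far to the right for gaps in kb (median 53.3 kb, against 16.6 to 18.1 kb on the arms) and runs close to the arms for length and for scaled gaps.

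Close clusters were few on the X. With sites joined into a chain where the gap was at most 1 kb, 15 X sites lay in 7 chains, of which 6 were pairs and 1 was a triple. That was 6.98% of X sites (3.96 to 11.3), against 127 sites on 2L (19.1%, 16.2 to 22.3), 142 on 3L (18.7%, 16.0 to 21.7) and 189 on 3R (21.0%, 18.4 to 23.8). The X interval lay below all 3 arm intervals. At the other limits tried the X was again lower. At 500 bp 2.79% of X sites were chained, against 12.9% on 2L, 11.7% on 3L and 15.5% on 3R. At 10 kb the share was 32.1% on the X, against 56.4% on 2L, 59.4% on 3L and 59.8% on 3R. Chains also stayed small on the X, where the largest at 10 kb had 4 sites, from 15877506 to 15899880 bp, against 6 on 2L, 6 on 3L and 10 on 3R. Since a fixed limit joins fewer sites where sites are sparse, these shares are to be read beside the shares of gaps scaled to the mean gap.

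The 7 chains can be listed by position. The only triple on the X joined chrX:8301380-8302043, chrX:8302894-8303569 and chrX:8304359-8305811 over 4431 bp, with gaps of 851 and 790 bp. Its members measured 663, 675 and 1452 bp, so each of them was above the upper quartile of X lengths, and the last was the only broad X site in a chain. The closest pair, chrX:17473337-17473804 and chrX:17473871-17474169, was 67 bp apart. The pair chrX:10638741-10638974 and chrX:10639091-10639624 was 117 bp apart, and chrX:9578564-9578878 and chrX:9579330-9579964 were 452 bp apart. No other X sites were within 500 bp of each other. The pair chrX:9086409-9086913 and chrX:9087475-9088152 had a gap of 562 bp and an extent of 1743 bp. The remaining pairs were chrX:15998789-15999100 with chrX:15999772-16000082, with a gap of 672 bp, and chrX:3672579-3672948 with chrX:3673796-3674019, with a gap of 848 bp. In both the 562 bp and the 452 bp pair another site followed within 5 kb, which gave groups of 3 from 9086409 to 9090708 bp and from 9578564 to 9582110 bp. With the X span cut into 4 equal stretches, the stretch from 5777264 to 11137465 bp held 9 of the 15 chained sites, and the others held 2 each.

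**Figure D3:**
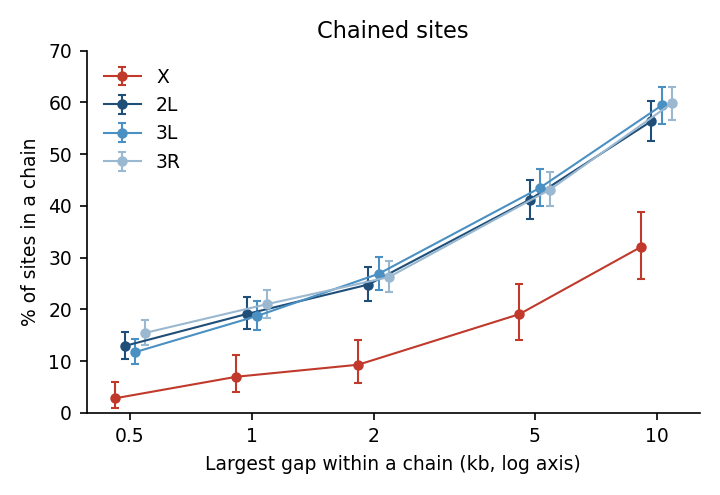
Share of sites that lie in a chain, by the largest gap allowed within a chain (0.5 to 10 kb, log axis), for the X, 2L, 3L and 3R; error bars are exact Clopper-Pearson 95% intervals and points are offset sideways for clarity. The X share rises to 32.1% at 10 kb, against 56.4% to 59.8% on the arms, and is below the arms at each limit.

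In consecutive windows of 1 Mb, the X was thin throughout. Its 21 full windows held 3 to 19 sites with a median of 9, against a median of 31 over the 73 windows of the arms. The fullest X window, 15000001 to 16000000 bp, had 19 sites, and 5 of the 73 arm windows had as few as that or fewer. The next fullest X windows had 14 sites each, and there were 4 of them, which began at 5000001, 6000001, 9000001 and 16000001 bp. The emptiest, 14000001 to 15000000 bp, had 3 sites, all at or before 14112646 bp, and then lay inside the longest gap, so the emptiest and the fullest windows of the X were neighbours. The last 2 full windows, from 19000001 bp on, held 5 and 4 sites. In the 4 equal stretches of the span there were 56, 59, 58 and 42 sites, or 10.5, 11.01, 10.8 and 7.84 per Mb, and the interval of the last stretch (5.65 to 10.6) overlapped those of the others. On each of 2L, 3L and 3R as well, the last such stretch held fewer sites than the first. The stretches were ordered by coordinate, and which end lies towards the centromere was not taken into account.

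The variance of the window counts was 1.52 times their mean on the X, against 2.37 on 2L, 3.00 on 3L and 2.80 on 3R. Where counts vary in proportion to their mean this ratio grows with the mean, and the order was the other way for the SD relative to the mean. That coefficient of variation was 0.39 on the X, against 0.28 on 2L, 0.31 on 3L and 0.29 on 3R. Counting error alone makes this coefficient larger where the mean is lower. The mean was 10 sites per window on the X, against 29.45 on 2L, 31.5 on 3L and 32.4 on 3R. Neither measure therefore tells unevenness apart from density.

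**Figure D4:**
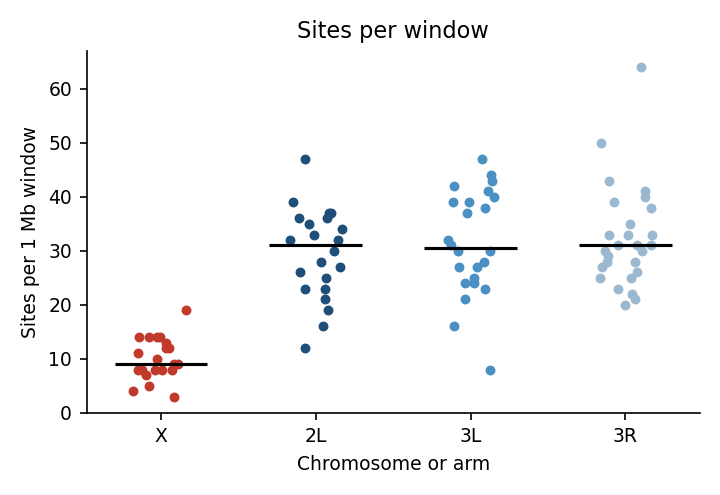
Number of trr sites in each full 1 Mb window of the X, 2L, 3L and 3R; each point is a window, spread sideways for clarity, and the black line is the median. X windows hold 3 to 19 sites with a median of 9, and 5 of the 73 arm windows are at or below 19.

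Length and spacing had a rank correlation near 0 among X sites. Spearman's rho between the length of a site and the distance to its nearest neighbour was -0.014 over 215 X sites, 0.088 over 665 on 2L, -0.048 over 759 on 3L and -0.0053 over 899 on 3R, where neighbouring sites share a distance. Lone sites were common on the X, with 64 of 215 more than 50 kb from any other (29.8%, 23.7 to 36.4), against 6.17% on 2L, 6.06% on 3L and 4.34% on 3R. A fixed limit leaves more lone sites where sites are sparse, so this share too is to be read beside the scaled gaps. Those 64 X sites had a median length of 377 bp (335 to 420), the 15 in chains 467 bp (310 to 663), the 54 with a neighbour at 1 to 10 kb 381 bp (324 to 430) and the 82 with one at 10 to 50 kb 428 bp (394 to 502). All 4 intervals overlapped. The class of 10 to 50 kb held 5 of the 9 broad X sites.

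**Figure D5:**
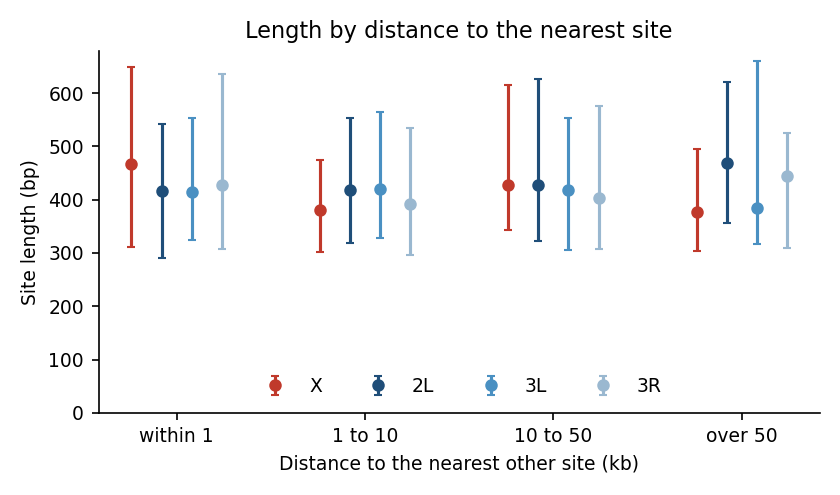
Median site length (points) and quartiles (bars) in bp by the distance to the nearest other site, for the X, 2L, 3L and 3R. The X medians lie between 377 and 467 bp and the quartile ranges of all classes overlap.

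Expression of X-linked genes was compared between trr knockdown and control heads to set the X beside the arms in a second readout, without a link from a site to a gene. The 4 libraries held 26382790 to 28171883 gene counts, and X-linked genes took 16.6% and 16.5% of them in the knockdown libraries and 16.3% and 16.4% in the control libraries. The targeted gene was not lower in the knockdown libraries, so it gives no check of their labels. By RT-qPCR on a separate replicate, the paper reports reduced trr RNA in whole heads with the knockdown. The gene trr had 2651 and 2265 counts in the libraries labelled trr knockdown and 1964 and 2589 in the controls, a log2 fold change of 0.12 ± 0.15 (SE, adjusted p = 0.679, edgeR's quasi-likelihood test with Benjamini-Hochberg adjustment). Its annotation overlaps that of Coa8, so reads in the shared stretch could have been set aside as ambiguous. G9a had 1261 and 1147 counts, against 1438 and 1307 in the controls (-0.18 ± 0.10). The head markers fixed for neurons and photoreceptors were present in all 4 libraries, at 3512 to 3605 and 56434 to 64022 CPM in sum. CPM are counts scaled to the library total after its adjustment by edgeR's TMM normalization.

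X-linked genes were called at about the rate of all genes. Of 1824 X-linked genes tested, 17 were called by edgeR's quasi-likelihood test (adjusted p under 0.05 and a fold over 1.5), which is 0.93% (0.54 to 1.49), against 1.03% of all 11416 genes tested. With the trr knockdown, as labelled, 12 of these rose and 5 fell, but the balance was not stable, with 27 higher and 37 lower among the 64 called by DESeq2 and 131 higher and 133 lower without control replicate 2. On 2L, 3L and 3R 1.204%, 0.872% and 0.706% were called. The median log2 fold change of X-linked genes was 0.06, against -0.02 on 2L, -0.01 on 3L and -0.01 on 3R. A positive log2 fold change was found for 59.05% of X-linked genes, against 47.5% on 2L, 48.6% on 3L and 48.4% on 3R. Between replicates of a group, the median log2 CPM of X-linked genes, less that of all genes, had an SD of 0.09. The X-linked median log2 fold change was smaller than that SD. The count of X-linked calls changed with single libraries. It was 0 without knockdown replicate 1, when 0 of all 11134 genes tested were called, and 1 without knockdown replicate 2, when that gene was the only call among 11151. It was 93 without control replicate 1, of 756 calls among 11141 genes, and 264 without control replicate 2, of 2009 calls among 11198 genes. DESeq2 called 64 X-linked genes, of 496 calls among 11416 genes.

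Among the X-linked genes that rose in the libraries labelled trr knockdown, whe had the widest difference, with 736 and 673 counts there and 0 and 1 in the controls. That is a ratio of 1412 with a counting interval of 253 to 55819. The gene wisp, which encodes a cytoplasmic poly(A) polymerase used in the female germ line, had 271 and 296 counts, against 59 and 52 (2.36 ± 0.20 on the log2 scale). CG2962, which overlaps ATPsyndelta, and lcs also rose, by 3.50 and 2.01 on the log2 scale. Caf1-180, the large subunit of chromatin assembly factor 1, had 581 and 546 counts, against 274 and 311 (0.95 ± 0.14). The yolk protein genes Yp1 and Yp3, expressed in the female fat body, fell. Yp1 had 36428 and 35635 counts, against 91332 and 69415 (-1.15 ± 0.15), and Yp3 36417 and 34942, against 78835 and 60875 (-0.96 ± 0.14). The female fat body markers Yp1, Yp2 and Yp3 summed to 3330 and 3433 CPM in the knockdown libraries and 7218 and 5623 CPM in the controls, and the male markers roX1 and roX2 to 1758 and 1901 CPM in the knockdown libraries and 2151 and 2331 CPM in the controls. The part of the flies' sex in these differences was not tested. The other X-linked genes with the largest decreases were sordd2 (-1.19), CG32523 (-0.84), which overlaps Mnr, and CG34330 (-0.77). Without a filter on low counts, 6 of these 10 named calls missed the call in edgeR with Benjamini-Hochberg adjustment, namely Caf1-180 (adjusted p = 0.082), Yp1 (0.073), Yp3 (0.088), sordd2 (0.088), CG32523 (0.052) and CG34330 (0.080). The remaining 7 X-linked calls all rose and had a lower rank or under 100 counts. Of these yl, the oocyte receptor for yolk proteins, singled out after its values were seen, had 48 and 77 counts, against 0 and 0, which is at least 20.9-fold higher at a floor of 3 counts per library. Another of the 7 calls, swa, also singled out after its values were seen, had 36 and 62 counts, against 3 and 4. Of the ovary markers, bam was under the minimum of 10 counts and nos was not matched to a gene. The part of germ-line RNA was therefore not tested.

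None of the genes of the lists for chromatin, neurons and dosage compensation was called. An unadjusted p under 0.05 in edgeR's quasi-likelihood test was found for 293 of the 1824 X-linked genes (16.1%) and 2195 of all 11416 genes (19.2%), which is the background for the counts in each list. Of the 11 chromatin genes tested, which include nej, the fly CBP acetyltransferase, and fs(1)h, a BET protein, 0 were called by edgeR's quasi-likelihood test and 0 by DESeq2, 1 had an unadjusted p under 0.05, and the median log2 fold change was 0.19. The one was nej, with 12451 and 11731 counts, against 9050 and 9707 (0.37 ± 0.09, adjusted p = 0.109 by edgeR with Benjamini-Hochberg adjustment). Of the 32 X-linked neuronal genes tested, edgeR and DESeq2 called 0, 4 had an unadjusted p under 0.05, and the median log2 fold change was 0.01. Of the 7 dosage compensation genes on any chromosome, edgeR and DESeq2 called 0, 3 had an unadjusted p under 0.05, and the median was 0.01. The roX RNA with more counts, roX1, had 48766 and 49724 counts in the libraries labelled trr knockdown, against 58122 and 63223 in the controls (-0.29 ± 0.10). The largest change of the 7 was in mle, with 3509 and 3444 counts, against 5793 and 4658 in the controls (-0.58 ± 0.12). Its adjusted p was 0.100 by edgeR with Benjamini-Hochberg adjustment. Of the 7 genes, 4 had a positive log2 fold change and 3 a negative one. For comparison, the median over all genes tested was 0.00078.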

How the data were processed

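The study measured trr binding in wild-type fly heads by ChIP-seq and gene expression by RNA-seq. The submitters' processing notes name BWA 0.6.1, MACS2 and build dm3. The study's methods state that low-quality clusters were removed, sites merged, and sites kept by a minimum of reads and a maximum ratio between the ChIP replicates. The deposited list gives only chromosome, start and end, with no score or read number. For RNA, the authors deposited raw counts per gene from HTSeq, made without a stated strand setting. Lines that name no gene (21.5% to 23.5% of reads) were left out. Overlapping genes are therefore uncertain, which holds for trr, CG2962 and CG32523 as named above. It also holds for Yp1, which overlaps asRNA:CR45601, for roX1, which overlaps ec, and for yl, which overlaps mir-4917.

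Site lengths are end minus start, gaps run from end to start, and windows count site centres. Counts carry exact Poisson, shares exact Clopper-Pearson and medians order-statistic 95% intervals. Gene names and chromosomes came from RefSeq tables (15002 of 15682 genes, 95.7%), whose build differs, so that they served only for names, chromosomes and overlaps between genes. The trr libraries (26382790 to 28171883 gene counts) were compared with edgeR 4.0.16 in R 4.3.3 (TMM, at least 10 counts summed), and with DESeq2 1.42.0 as an alternative. The 2 libraries a group are described as biological replicates. On simulated counts of the trr comparison (11295 genes), 200 of 200 genes changed 4-fold were recovered among 208 calls. Changes under 4-fold and changes in genes with few counts were not simulated, so the recovery does not cover them. The text names the 5 longest and 3 shortest X sites, the largest chains, 3 longest gaps and 3 closest pairs, the 3 fullest windows (with ties), trr, and, of X-linked genes called without overlap between groups and with a mean of at least 100 counts in the higher group, the 5 that rose and the 5 that fell most. Members and lists were chosen with earlier results of these data known. Other settings tried were site length, chain limit, window size and start, centre distances, normalization, filters, a replicate block and each library left out. Of the X-linked neuronal list, 34 of 36 symbols were matched to a gene on the X and 32 passed the filter. Of the other symbols, Nrg was not matched to a gene and Caki was placed on 3R. Of the chromatin list 11 of 12 were matched.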

Additional observations from a re-analysis of the deposited data

How the results depend on the processing

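The X lay below 2L, 3L and 3R in density, in chained share, in sites per expressed gene and in the window ratio, and above them in median gap, under every alternative run for those results. With only sites of at least 300 bp, there were 8.16 X sites per Mb and 9.59 per 100 expressed genes, and the median length was 440 bp, now below all 3 arms (465 to 481 bp); with genes of at least 1 CPM there were 14.1 sites per 100 expressed genes. The mean length, 471 bp, was level with that of 3R (471 bp) and below those of 2L (502 bp) and 3L (476 bp). Sites of at least 1.5 kb were 0.93% of X sites, above the arms (0.53% to 0.67%) on 2 X sites. The chained share was 2.79% at 500 bp, 19.1% at 5 kb, 32.1% at 10 kb and 3.72% from centre to centre. In 2 Mb windows the variance to mean ratio was 0.94. Density over the full dm3 length of the X was not run, for want of a dm3 genome.

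X-linked calls numbered 64 by DESeq2 and 5 with no filter on low counts (all genes: 496 and 29), and 0 to 264 with a library left out. The X-linked median log2 fold change was 0.01 to 0.11 with a library left out. The log2 fold change of trr was -0.075 without control replicate 1 and 0.33 without control replicate 2, and 0.04 to 0.18 without a knockdown replicate. Of 108 values for named genes under the alternatives, 25 lost their call and 82 kept it or stayed uncalled. The replicate numbers do not show pairing (correlation of deviations of same-numbered libraries -0.06), and with the number as a block 100 X-linked genes were called, 46 higher and 54 lower (819 of all genes). Sites per library, reads per site and sex are not known here, so the site counts carry no replicate error.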
